A study of Homo sapiens with 16 samples.

Results

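The genes described here are 47 subunits of the respiratory chain and ATP synthase, of 19315 genes listed in at least 1 of 6 tables of differential expression. They were taken by gene symbol, and each was listed once in all 6 tables. The 13 genes of the mitochondrial genome were set against 34 nuclear genes whose proteins join the same complexes. Complex I had 7 mitochondrially encoded and 14 nuclear genes, complex II had 4 nuclear ones, complex III had 1 and 6, complex IV had 3 and 6, and ATP synthase (complex V) had 2 and 4. NDUFA4, named for complex I, was counted with complex IV, to which its protein is now assigned.

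Cells of 2 established human lines were used, HCT116 from a colorectal carcinoma and U2OS from an osteosarcoma. In each line they received for 48 hours a non-targeting small interfering RNA (siCtrl), siMYBL1 against MYBL1 (A-MYB), siMYBL2 against MYBL2 (B-MYB), or siMYBL1 and siMYBL2 together, called the double knockdown. MYBL1 and MYBL2 are MYB family transcription factors, and MYBL2 acts with the MuvB complex on genes of late cell cycle. Each of the 8 groups had 2 libraries, called biological replicates in the series' design text; no clone or other engineered allele is named in the labels.

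The respiratory chain passes electrons from NADH and succinate to oxygen and pumps protons across the inner mitochondrial membrane, and ATP synthase uses the proton gradient to make ATP. Most of its subunits are encoded in the nucleus and imported, while a few hydrophobic core subunits are encoded in mitochondrial DNA. This DNA is transcribed from both strands by POLRMT as long precursors that are cut into shorter RNAs. Complex II is built of nuclear subunits alone. Tumour lines in culture also draw on glycolysis for ATP.

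The tables give a base mean, which is the average normalized count of a gene in the 4 libraries compared, a log2 fold change of knockdown over siCtrl with its standard error (SE), and a DESeq2 Wald test. They hold no values per library, so group means quoted here were split from the base mean and fold change on the assumption of equal weight for each library, and no spread within a group can be given. A gene is called at an adjusted p under 0.05. MYBL2 stood, per the authors' deposited table, at 9.05% and 9.92% of its siCtrl level in HCT116 and 4.53% and 4.34% in U2OS after siMYBL2 and the double knockdown. MYBL1 stood at 31.4%, 27.8%, 50.7% and 43.5% after siMYBL1 and the double knockdown in the same order of lines, and all 8 values were called. Of 12 epithelial markers 11 were listed in all 3 HCT116 tables and 5 in all 3 U2OS tables, and of 12 mesenchymal and bone markers 6 and 10. The keratins KRT8 and KRT18 were as abundant in U2OS (lowest base means 33055 and 14210) as in HCT116 (31627 and 13134). Other markers differed widely between the lines. EPCAM had base means of 5529 or more in HCT116 and at most 240 in U2OS. KRT19 and ESRP1 were listed only in HCT116. VIM, COL1A1 and SPARC were at most 64.9, 485 and 258 in HCT116 and at least 21091, 19241 and 23907.5 in U2OS. Of the mesenchymal list, TWIST1 and COL1A2 were listed only in HCT116, at base means up to 64.2. Of the blood cell markers, CD68 was listed in all 3 tables of both lines at base means up to 57.4, LYZ in 1 table of each line and HBA1 in 1 HCT116 table, while PTPRC, CD3E, CD14 and HBB were in none. In these bulk samples, the number of mitochondria per cell, the RNA per mitochondrion and the amount of other RNA in the cell cannot be told apart.

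Mitochondrial genes lie close together and some share bases, which limits how far their reads can be separated. In the annotation used (hg38, release 29 of GENCODE), MT-ATP8 (chrM 8366 to 8572) and MT-ATP6 (8527 to 9207) overlap by 46 bases, which is 22.2% of MT-ATP8, and MT-ND4L (10470 to 10766) and MT-ND4 (10760 to 12137) by 7 bases. Both pairs lie on the forward strand. The ends and starts are shown with the shared bases in capitals.
MT-ATP8, last 60 bases: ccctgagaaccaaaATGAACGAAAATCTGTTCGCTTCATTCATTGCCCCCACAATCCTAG
MT-ATP6, first 60 bases: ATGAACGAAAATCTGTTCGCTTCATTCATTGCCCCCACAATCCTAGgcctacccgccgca
MT-ND4L, last 30 bases: gtacataacctaaacctactccaATGCTAA
MT-ND4, first 30 bases: ATGCTAAaactaatcgtcccaacaattata
The nuclear genome also holds old copies of mitochondrial DNA. MTATP6P1, on chromosome 1 at 633696 to 634376, matches all 681 bases of MT-ATP6 with 10 mismatches, an identity of 98.5%. The first 90 bases of both are shown with the single mismatch among them in capitals.
MT-ATP6: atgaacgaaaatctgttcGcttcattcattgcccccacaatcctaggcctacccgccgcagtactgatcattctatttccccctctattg
MTATP6P1: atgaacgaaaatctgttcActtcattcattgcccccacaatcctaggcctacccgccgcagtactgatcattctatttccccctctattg
Of the words of 31 bases in each mitochondrial gene, between 3.48% (MT-ND3) and 66.7% (MT-CO1) recur exactly in at least 1 of 394 such copies, so reads could be split between a gene and its copy. Values of the mitochondrially encoded genes carry that uncertainty throughout.

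In siCtrl cells the mitochondrially encoded RNAs were by far the more abundant. Per kilobase of transcript, their median level was 45.4 times that of the nuclear subunits in HCT116 (80205 against 1765 normalized counts per kb) and 34.8 times in U2OS (60736 against 1744). These levels are means over 3 tables that share the same control libraries, and are given as a description. The highest level per kb was that of MT-CO3 in HCT116 (162820) and of MT-CO1 in U2OS (139529), both core subunits of cytochrome c oxidase. The lowest mitochondrially encoded ones were MT-ND6, at 12541 in HCT116 and 6767 in U2OS, and MT-ND5, at 20688 and 14379.9. COX4I1, a regulatory subunit of complex IV, was the highest nuclear gene, at 10199.8 in HCT116 and 8162 in U2OS, so that in U2OS it lay above MT-ND6. With the longest principal transcript as the length of each gene, the first rule tried, the ratio of medians was 46.3 in HCT116 and 42.7 in U2OS, and the lowest mitochondrially encoded level in U2OS was 1.01 times the highest nuclear one, against 0.829 times here. The order of MT-ND6 and COX4I1 in U2OS therefore turns with the length rule. SDHC (13.6 kb) and NDUFA9 (8.36 kb) have annotated transcripts much longer than the other nuclear members, so their low levels per kb depend on those lengths.

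**Figure D1:**
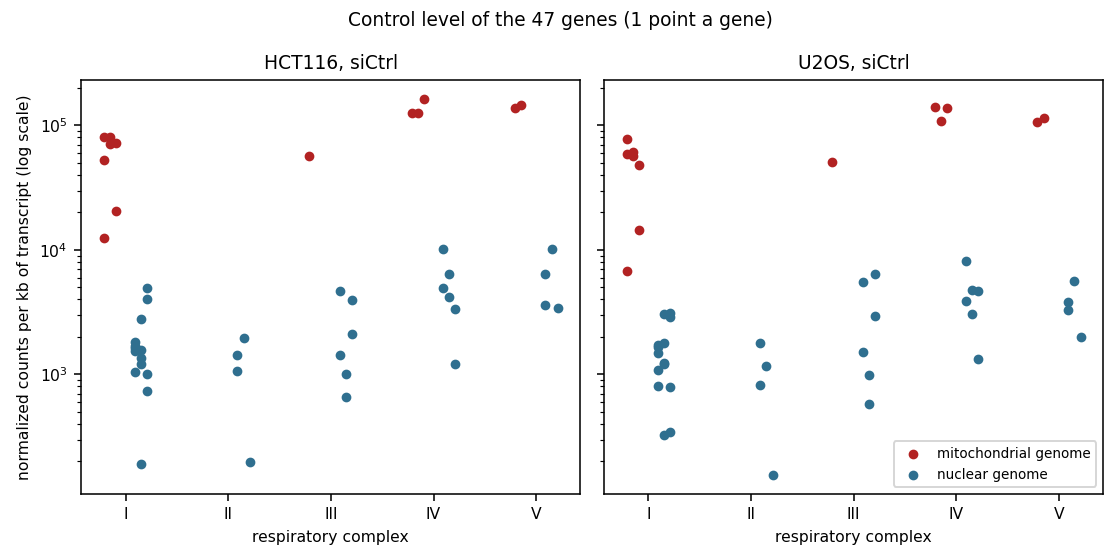
Normalized counts per kb of transcript in siCtrl cells (log scale) for each of the 47 genes, by complex, in HCT116 (left) and U2OS (right); each point is 1 gene, red for the mitochondrial and blue for the nuclear genome. In each complex that has both, the lowest mitochondrially encoded gene lies above the highest nuclear one, by between 2.15 and 19.1 times.

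After knockdown, most mitochondrially encoded RNAs had positive log2 fold changes, while medians of the nuclear subunits lay between -0.16 and 0.05. Positive values were found for 4, 21 and 4 of the 34 nuclear subunits in HCT116 after siMYBL1, siMYBL2 and the double knockdown, and for 5, 24 and 13 in U2OS. Of all genes of base mean 100 or more, 52.8%, 44.5% and 46.0% were positive in HCT116 and 52.9%, 49.8% and 50.9% in U2OS. At a base mean of 10000 or more, with members and mitochondrial genes left out, 41.7%, 36.1% and 20.3% were positive in HCT116. In U2OS these shares were 32.6%, 21.8% and 23.8%. Of the 13 mitochondrially encoded members, only 4 in the HCT116 double knockdown were called, all higher, and every called nuclear subunit was lower. The 13 mitochondrially encoded genes together made up 4.79% of normalized counts in HCT116 siCtrl in the siMYBL1 table and 5.74% after siMYBL1. Their share went from 4.80% to 6.39% with siMYBL2 and from 4.83% to 6.80% with both. In U2OS the shares were 4.75% and 5.46% for siMYBL1, 4.75% and 5.87% for siMYBL2, and 4.74% and 5.53% for the double knockdown. The 34 nuclear subunits held 0.613% of the HCT116 counts before and 0.566% after siMYBL1, 0.616% and 0.626% with siMYBL2, and 0.617% and 0.577% in the double knockdown. In U2OS their share was 0.560% before and 0.4998% after siMYBL1, 0.565% and 0.585% with siMYBL2, and 0.561% and 0.551% in the double knockdown. It was thus lower after siMYBL1 and the double knockdown and higher after siMYBL2 in both lines. The higher share after siMYBL2 is not a rise in summed counts of the nuclear subunits, which changed by log2 -0.009 in HCT116 and -0.002 in U2OS. The total without genes of the mitochondrial genome changed by log2 -0.066 and -0.077 there. Summed counts of the mitochondrially encoded members changed by log2 0.38 and 0.25 there. Shares thus also move with the total. These sums were split from the authors' deposited tables and have no test. The 3 comparisons of a line share their siCtrl libraries, so values that recur across them are not independent. The mitochondrially encoded RNAs are cut from shared precursors and were measured in the same libraries. Counts of these genes are therefore not counts of independent observations.

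In HCT116, siMYBL1 alone left no member called. The 13 mitochondrially encoded genes were all positive, per the authors' deposited table, with a median log2 fold change of 0.28, against -0.10 for the nuclear members and 0.01 for all genes of base mean 100 or more. By the DESeq2 test 0 of 47 passed, beside 0.115% of all listed genes called higher and 0.144% called lower; at an unadjusted p under 0.05 there were 6 mitochondrially encoded genes higher and 2 nuclear ones lower. The smallest p was that of MT-ND5, 0.000514 before and 0.131 after adjustment, with a log2 fold change of 0.47 (SE 0.13). The 2 nuclear genes were NDUFB5 at -0.35 (SE 0.16) and NDUFA9 at -0.29 (SE 0.14), both accessory subunits of complex I.

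After siMYBL2 in HCT116 the mitochondrially encoded genes had a median of 0.37, per the authors' deposited table, with 12 of 13 positive, and the nuclear members a median of 0.03. Again 0 of 47 passed the DESeq2 test, with 0.291% of all genes called higher and 0.837% lower; at an unadjusted p under 0.05, 7 mitochondrially encoded genes were higher, 1 (MT-ND6) was lower and 2 nuclear genes were lower. MT-ND5, at 0.50 ± 0.15 SE (adjusted p = 0.0526), did not pass, per the authors' deposited table. It passed when fold changes were centred on the median of all genes (adjusted p = 0.0345 by the recomputed Wald test), and with equal totals without mitochondrial genes MT-ND5 (adjusted p = 0.0160) and MT-ND4 (adjusted p = 0.0399) passed.

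In the HCT116 double knockdown 4 mitochondrially encoded genes rose, and NDUFA4 and NDUFB8 fell. MT-ND5, a proton-pumping core subunit of complex I, went from 39206 to 60265 normalized counts, 0.62 ± 0.15 SE (adjusted p = 0.0012), per the authors' deposited table, or 1.54-fold. MT-ND4, its neighbour in the same membrane arm, went from 115628 to 171750, a log2 fold change of 0.57 ± 0.14 SE (adjusted p = 0.00189), per the authors' deposited table. MT-CYB, the cytochrome b of complex III, stood at 0.50 ± 0.17 SE (adjusted p = 0.046) and MT-CO1, the catalytic subunit of complex IV, at 0.48 ± 0.15 SE (adjusted p = 0.0348), per the authors' deposited table. Thus 4 of 13 mitochondrially encoded genes were called higher and 0 lower, where 2.82% of all genes were called higher, and 2 of 34 nuclear genes were called lower, where 4.12% of all genes were. The medians were 0.40 and -0.13, beside -0.03 for all genes of base mean 100 or more. With equal totals without mitochondrial genes the nuclear median was -0.04. MT-ATP6 (0.48 ± 0.17 SE, adjusted p = 0.0512, per the authors' deposited table) passed after centring (adjusted p = 0.0355, recomputed Wald test), and with equal totals without mitochondrial genes MT-ND1 passed as well (adjusted p = 0.0365, recomputed Wald test). MT-CO1 is not among the genes that the authors' own column marks, which takes absolute log2 fold changes of at least 0.5.

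In U2OS none of the 13 mitochondrially encoded members was called after any knockdown. Medians were 0.19, 0.19 and 0.13 after siMYBL1, siMYBL2 and the double knockdown, with 12, 12 and 10 of 13 genes positive, while all genes of base mean 100 or more had medians of 0.02, -0.00 and 0.01. By the DESeq2 test 0 of 13 passed in each, and 1, 3 and 2 had an unadjusted p under 0.05, all higher; 3.44%, 1.69% and 6.55% of all genes were called higher. Of the 34 nuclear members, 1, 1 and 2 were called lower, beside 2.27%, 3.51% and 6.06% of all genes. They were NDUFB5 after siMYBL1, NDUFB8 after siMYBL2, and NDUFB8 and NDUFA8 in the double knockdown. Nuclear medians were -0.16, 0.05 and -0.06. With equal totals without mitochondrial genes the last of these was -0.01. These nuclear counts are near the share of all genes called.

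**Figure D2:**
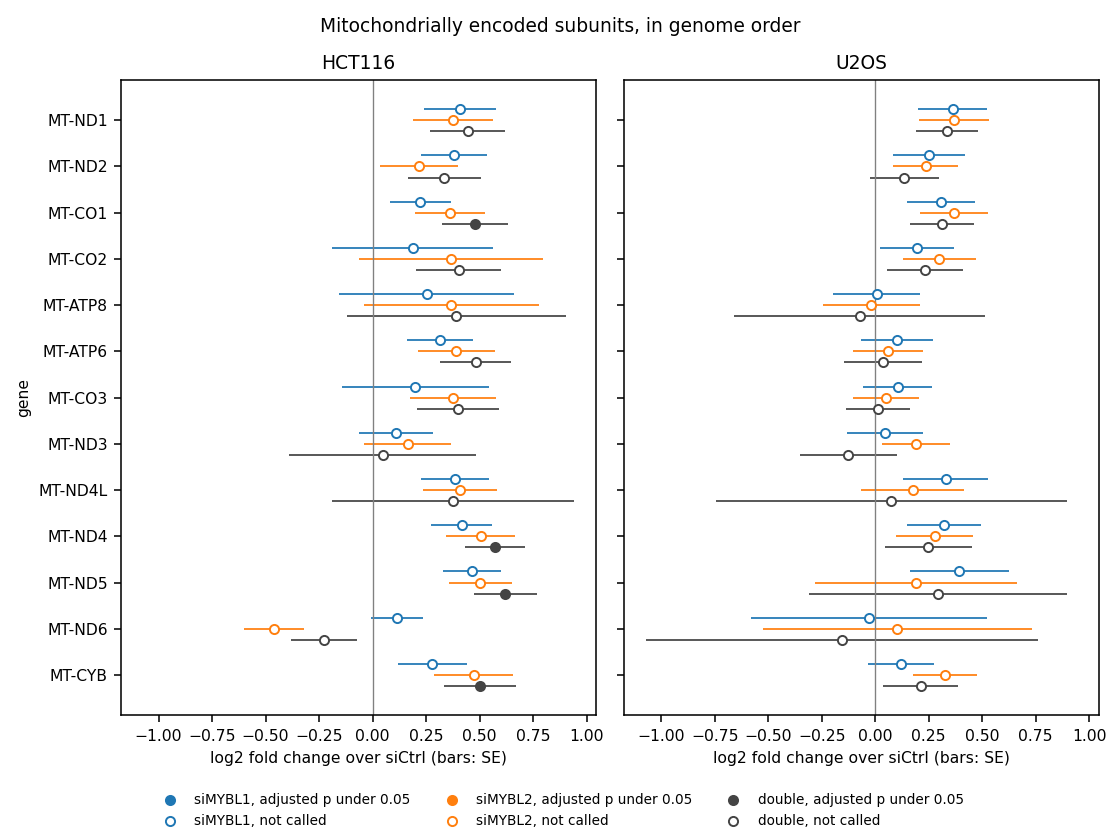
Log2 fold changes over siCtrl (x axis; bars are the SE in the authors' tables) of the 13 mitochondrially encoded genes in genome order (y axis), in HCT116 (left) and U2OS (right); colours mark the knockdown and filled points an adjusted p under 0.05. Only 4 points, all of the HCT116 double knockdown, are filled, and MT-ND6 lies apart from the others in HCT116 at -0.46 after siMYBL2 and -0.23 in the double knockdown.

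Complex I takes electrons from NADH. Its mitochondrially encoded subunits form the membrane arm that pumps protons. MT-ND1, next to the quinone site, stood at 0.41, 0.37 and 0.45 in HCT116 and 0.36, 0.37 and 0.33 in U2OS, per the authors' deposited tables, each with an unadjusted p under 0.05 and none called. MT-ND2, another pumping subunit, ranged from 0.13 to 0.38 over the 6 tables. MT-ND3 ranged from -0.13 to 0.19 and was the lowest of the 12 forward-strand genes in each HCT116 table. MT-ND4L, which shares its end with MT-ND4, ranged from 0.08 to 0.41. Its SE was 0.82 in the U2OS double knockdown and 0.16 in HCT116 after siMYBL1.

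MT-ND6 is the 1 member transcribed from the other strand of the mitochondrial DNA (chrM 14149 to 14673, reverse strand). It encodes a membrane-arm subunit of complex I. In HCT116 it had 6494 normalized counts in siCtrl and 4719 after siMYBL2, a log2 fold change of -0.46 ± 0.14 SE (adjusted p = 0.0813), per the authors' deposited table. The 12 forward-strand genes in the same table lay between 0.16 and 0.50. In the HCT116 double knockdown MT-ND6 was at -0.23 ± 0.15 SE (adjusted p = 0.468) and after siMYBL1 at 0.12 ± 0.12 SE (adjusted p = 1), per the authors' deposited table, none of them called. In U2OS its SE was between 0.55 and 0.92, and its values of -0.03, 0.10 and -0.16 there cannot be placed above or below 0. Whether the libraries kept strand is not given in any source used here. MT-ND6 lies directly beside MT-ND5 and opposite forward-strand precursor RNA; an antisense share of its counts was not tested.

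The nuclear complex I members hold the called changes of the nuclear set but for NDUFA4. NDUFB8 (chromosome 10, 100523740 to 100530000, reverse strand), an accessory subunit of the membrane arm whose protein is lost when the complex is not assembled, went from 2165 to 1174 normalized counts after siMYBL2 in U2OS, -0.88 ± 0.18 SE (adjusted p = 0.00011), per the authors' deposited table, or 0.54 times the control. It fell in the U2OS double knockdown (-0.77 ± 0.19 SE, adjusted p = 0.00128) and in the HCT116 double knockdown (-0.59 ± 0.17 SE, adjusted p = 0.0142), per the authors' deposited tables. After siMYBL2 in HCT116 it stood at -0.54 ± 0.20 SE (adjusted p = 0.252), per the authors' deposited table, not called, and after siMYBL1 at -0.05 in HCT116 and -0.17 in U2OS. By value NDUFB8 was the lowest of the 34 nuclear members after siMYBL2 in both lines.

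NDUFB5 (chromosome 3, 179604690 to 179627647, forward strand), another membrane-arm accessory subunit, fell after siMYBL1 in U2OS, from 1379 to 852 normalized counts, -0.69 ± 0.21 SE (adjusted p = 0.0209), per the authors' deposited table. Its values after siMYBL2 were 0.02 in HCT116 and 0.20 in U2OS, and in the double knockdowns -0.34 and -0.32, none called. NDUFA8 (chromosome 9, 122144058 to 122159779, reverse strand), a subunit on the intermembrane side, fell in the U2OS double knockdown, -0.64 ± 0.20 SE (adjusted p = 0.0148), per the authors' deposited table. It was negative in all 6 tables, at -0.15, -0.28 and -0.36 in HCT116 and -0.27 and -0.34 after the single knockdowns in U2OS. The catalytic core, NDUFS1, NDUFS3, NDUFS7, NDUFV1 and NDUFV2, which carries flavin and iron-sulfur clusters, had no called member in any table; only NDUFV2 after siMYBL1 in U2OS had an unadjusted p under 0.05 by the DESeq2 test. Among these 5, NDUFV2 had the lowest value, -0.41 (SE 0.18) after siMYBL1 in U2OS, and NDUFV1 the highest, 0.28 (SE 0.17) in the U2OS double knockdown. NDUFA1, NDUFA2, NDUFA5, NDUFA9, NDUFB3 and NDUFB10, further accessory subunits, were not called either and lay between -0.39 (NDUFA2, U2OS double knockdown) and 0.24 (NDUFA9, U2OS after siMYBL2). NDUFB3 was within -0.38 and -0.36 in the 3 U2OS tables.

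**Figure D3:**
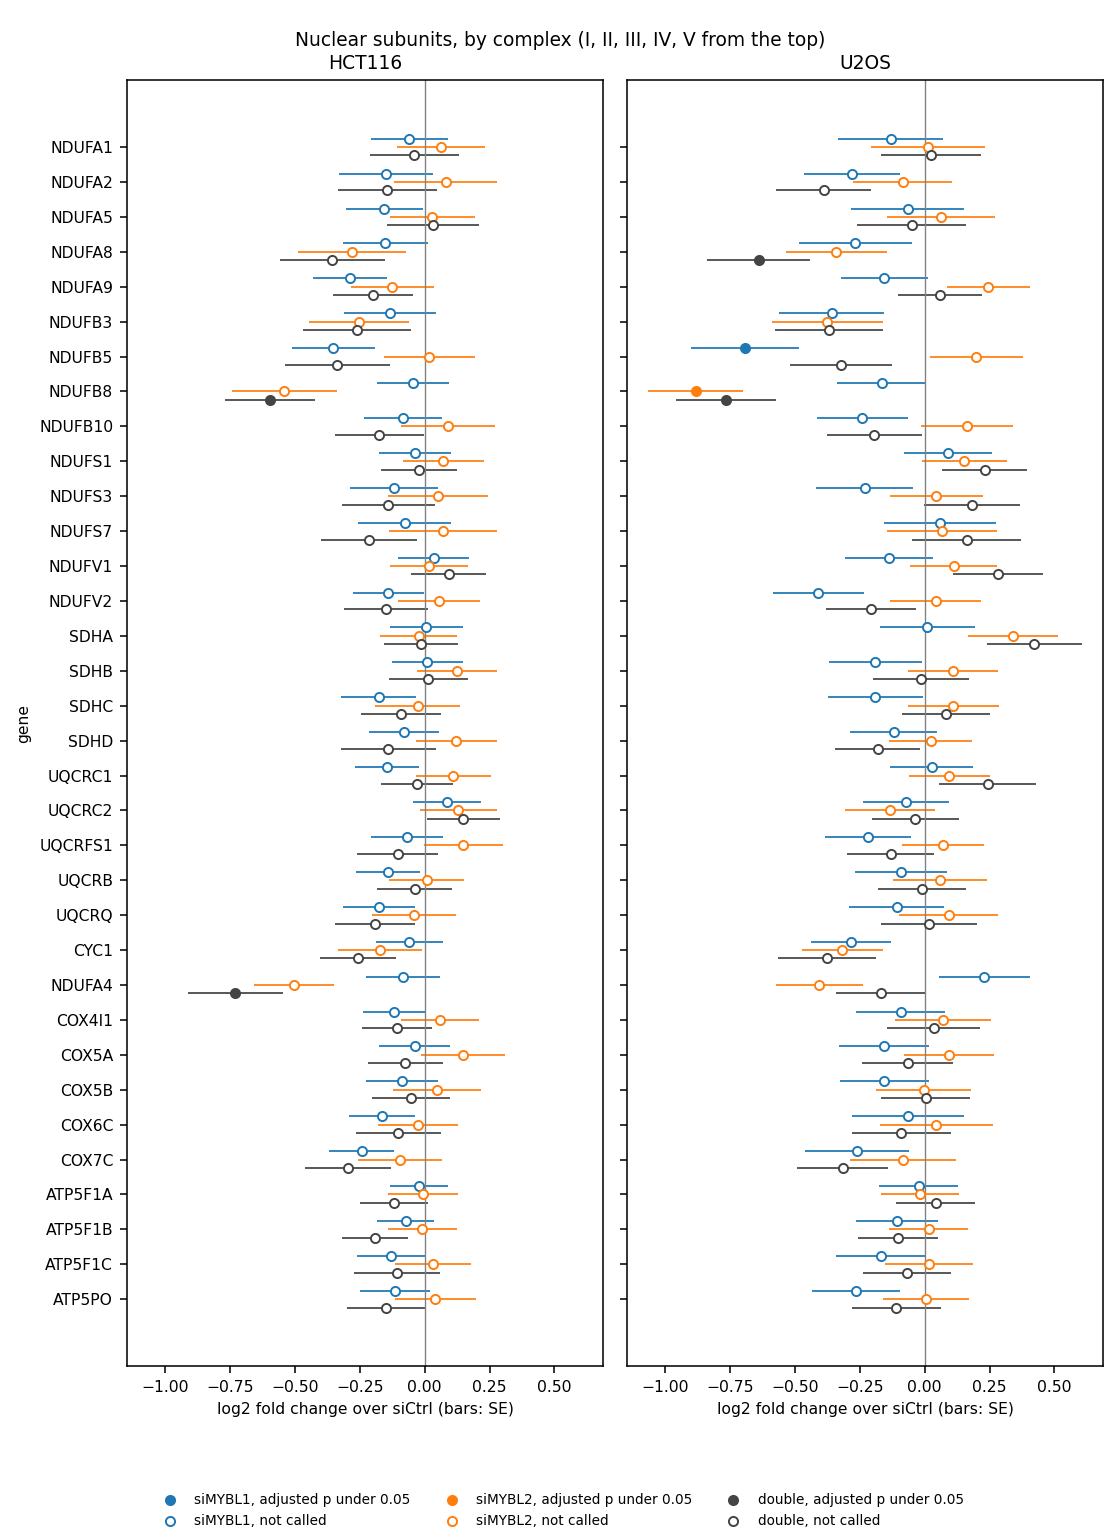
Log2 fold changes over siCtrl (x axis; bars are the SE in the authors' tables) of the 34 nuclear members (y axis, complex I at the top to complex V at the bottom), in HCT116 (left) and U2OS (right); filled points have an adjusted p under 0.05. The 6 filled points are all below 0 and belong to NDUFB8, NDUFA4, NDUFB5 and NDUFA8.

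Complex II, succinate dehydrogenase, links the citric acid cycle to the chain and has no mitochondrially encoded subunit. None of SDHA, SDHB, SDHC and SDHD was called in any table; the medians of the 4 were -0.04, 0.05 and -0.05 in HCT116 and -0.16, 0.11 and 0.03 in U2OS. SDHA, the flavoprotein that oxidises succinate, had the largest value, 0.42 ± 0.18 SE (adjusted p = 0.12) in the U2OS double knockdown, per the authors' deposited table, with an unadjusted p of 0.0204; in HCT116 it stood between -0.02 and 0.01. SDHD and SDHC, the membrane anchors, and SDHB, the iron-sulfur subunit, lay between -0.19 (SDHB and SDHC, U2OS after siMYBL1) and 0.13 (SDHB, HCT116 after siMYBL2).

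Complex III passes electrons from ubiquinol to cytochrome c. Its mitochondrially encoded subunit, MT-CYB, stood at 0.28, 0.47 and 0.50 in HCT116, of which the last was called, and at 0.12, 0.33 and 0.21 in U2OS, per the authors' deposited tables. The 6 nuclear subunits had medians of -0.10, 0.06 and -0.07 in HCT116 and -0.10, 0.07 and -0.02 in U2OS, and none was called; only CYC1, after siMYBL2 and the double knockdown in U2OS, had an unadjusted p under 0.05 by the DESeq2 test. CYC1, the heme-bearing cytochrome c1, was negative in all 6, from -0.38 (SE 0.19, unadjusted p 0.0462) in the U2OS double knockdown to -0.06 in HCT116 after siMYBL1. The core proteins UQCRC1 and UQCRC2, the Rieske protein UQCRFS1 and the small subunits UQCRB and UQCRQ ranged from -0.22 (UQCRFS1, U2OS after siMYBL1) to 0.24 (UQCRC1, U2OS double knockdown).

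Complex IV, cytochrome c oxidase, reduces oxygen, and MT-CO1, MT-CO2 and MT-CO3 form its core. MT-CO1 went from 201708 to 280818 normalized counts in the HCT116 double knockdown and stood at 0.22 and 0.36 after the single knockdowns there, per the authors' deposited tables. In U2OS it stood at 0.31, 0.37 and 0.31, not called. MT-CO2, which takes electrons from cytochrome c, lay between 0.19 and 0.40. MT-CO3 reached 0.40 in HCT116 and 0.11, 0.05 and 0.01 in U2OS. NDUFA4 (chromosome 7, 10931943 to 10940153, reverse strand) was the only nuclear subunit of this complex called in any table. It went from 2794 to 1685 normalized counts in the HCT116 double knockdown, -0.73 ± 0.18 SE (adjusted p = 0.00245), per the authors' deposited table, or 0.60 times the control. After siMYBL2 its value in HCT116 was -0.50 ± 0.15 SE (adjusted p = 0.0763) and in U2OS -0.41 ± 0.17 SE (adjusted p = 0.169), not called, and after siMYBL1 -0.08 and 0.23. COX4I1, COX5A, COX5B, COX6C and COX7C, structural and regulatory subunits, lay between -0.32 (COX7C, U2OS double knockdown) and 0.15 (COX5A, HCT116 after siMYBL2), none called.

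In ATP synthase, MT-ATP6 and MT-ATP8 belong to the membrane part, and ATP5F1A, ATP5F1B and ATP5F1C to the catalytic head that ATP5PO ties to the stator. MT-ATP6 stood at 0.31, 0.39 and 0.48 in HCT116 and at 0.10, 0.06 and 0.04 in U2OS, per the authors' deposited tables, none called. MT-ATP8, whose end is shared with it, stood at 0.25, 0.37 and 0.39 in HCT116, with SEs of 0.41, 0.41 and 0.51, and between -0.07 and 0.01 in U2OS. The copy MTATP6P1 was called higher in the HCT116 double knockdown, 0.52 ± 0.15 SE (adjusted p = 0.0179), per the authors' deposited table, at a level of 11270.1 normalized counts in siCtrl against 97578 for MT-ATP6. How far these counts come from the mitochondrial gene was not tested. The 4 nuclear subunits had medians of -0.09, 0.01 and -0.13 in HCT116 and -0.14, 0.01 and -0.09 in U2OS, with values from -0.26 (ATP5PO, U2OS after siMYBL1) to 0.04, and none was called.

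The mitochondrially encoded genes were measured with uneven precision. Of their 78 values over the 6 tables, 15 had an SE over 0.3, in 7 of the 13 genes, up to 0.92 for MT-ND6 in the U2OS double knockdown; none of the 204 nuclear values did. Among other genes of base mean 10000 or more, between 0.559% and 2.91% had such an SE. The ribosomal RNA gene MT-RNR1 had SEs between 0.72 and 1.09. With no values per library, whether 1 library stood apart at these genes was not tested. Those other abundant genes had medians of -0.02, -0.05 and -0.12 in HCT116 and -0.06, -0.11 and -0.16 in U2OS, below 0 where the mitochondrially encoded genes lay above it.

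The lines were compared by the difference of their fold changes for the same knockdown. For the mitochondrially encoded genes the median difference, U2OS minus HCT116, was -0.09 for siMYBL1, -0.15 for siMYBL2 and -0.29 for the double knockdown, with 11, 9 and 12 of 13 genes lower in U2OS. For all genes listed in both tables the medians were 0.01, 0.01 and 0.02. No member passed the Wald test of the difference, where 0.0594%, 0.215% and 1.27% of all genes did; at an unadjusted p under 0.05 there were 0, 0 and 1, the last being NDUFA4. Its double knockdown difference was 0.56 ± 0.25 SE (Wald test, adjusted p = 0.409, 95% interval 0.06 to 1.05). For MT-ATP6 the difference in the double knockdown was -0.44 ± 0.25 SE (Wald test, adjusted p = 0.602, 95% interval -0.93 to 0.04). A difference between the lines was thus not detected for any 1 gene, and the intervals are wide.

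**Figure D4:**
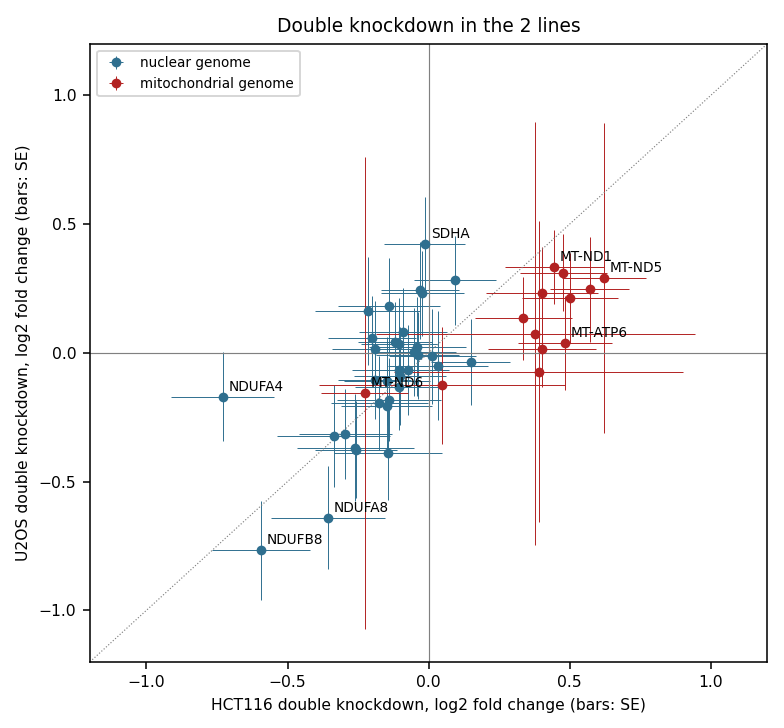
Log2 fold change in the double knockdown of HCT116 (x axis) against U2OS (y axis) for each of the 47 genes, with the SE as bars; red points are mitochondrially encoded, blue ones nuclear, and the dotted line marks equal values. Most red points lie right of 0 and under the dotted line, NDUFB8 is low in both lines, and NDUFA4 is low at -0.73 in HCT116 against -0.17 in U2OS.

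The double knockdown was compared with each single knockdown of the same line. In HCT116 the mitochondrially encoded genes had a median difference of 0.16 for the double knockdown minus siMYBL1 and 0.07 for the double knockdown minus siMYBL2, and in U2OS -0.08 and -0.06. No member passed this test, beside 1.28% and 0.645% of all genes in HCT116 and 1.54% and 1.05% in U2OS; at an unadjusted p under 0.05 there were 2, 0, 1 and 0 by the Wald test, all nuclear and lower in the double knockdown. NDUFA4 differed by -0.65 ± 0.23 SE (Wald test, adjusted p = 0.259, 95% interval -1.10 to -0.19) between the double knockdown and siMYBL1 in HCT116. NDUFB8 differed by -0.55 ± 0.22 SE (Wald test, adjusted p = 0.464, 95% interval -0.99 to -0.11) in HCT116 and by -0.60 ± 0.26 SE (Wald test, adjusted p = 0.448, 95% interval -1.10 to -0.10) in U2OS. The error used is too large because both tables share their controls. With the shared part taken off at a correlation of 0.5, the adjusted p by the Wald test was 0.00496 for NDUFA4 in HCT116. For NDUFB8 it was 0.0187 in HCT116 and 0.0229 in U2OS by the same test. The smaller error lowers p for every gene, and the shares of all genes given here belong to the larger error.

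Other genes of the same machinery were read from lists chosen with earlier results of these data known. Of 45 further nuclear subunits, 0, 0 and 1 were called in HCT116 after siMYBL1, siMYBL2 and the double knockdown and 0, 1 and 1 in U2OS, each time UQCR10, a small subunit of complex III. Of all genes, 4.12% were called lower in the HCT116 double knockdown and 3.51% and 6.06% in U2OS after siMYBL2 and the double knockdown, so 1 of 45 is below the background. UQCR10 stood at -1.27 ± 0.19 SE (adjusted p = 1.06e-08) after siMYBL2 in U2OS, -1.16 ± 0.19 SE (adjusted p = 4.65e-08) in the U2OS double knockdown and -0.64 ± 0.21 SE (adjusted p = 0.0391) in the HCT116 double knockdown, per the authors' deposited tables. After siMYBL1 alone it stood at -0.02 in HCT116 and -0.19 in U2OS, not called. Of 40 assembly factors, 2 were called lower in the HCT116 double knockdown, 1 in U2OS after siMYBL2 and 4 in the U2OS double knockdown, beside the same 4.12%, 3.51% and 6.06% of all genes. TMEM70, which helps to assemble ATP synthase, stood at -0.66, -0.81 and -1.06 in these 3, all called. NDUFAF3 (-0.80 ± 0.23 SE, adjusted p = 0.00549) and COX17 (-0.62 ± 0.21 SE, adjusted p = 0.0285), which serve complexes I and IV, fell in the U2OS double knockdown, and UQCC3 (-0.79 ± 0.22 SE, adjusted p = 0.00793) in the HCT116 double knockdown, per the authors' deposited tables. In the double knockdown of the other line NDUFAF3 stood at -0.45, COX17 at -0.64 and UQCC3 at -0.66, not called.

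Transcription of mitochondrial DNA depends on a small set of nuclear genes. POLRMT, the mitochondrial RNA polymerase, lay between -0.08 and 0.17, and LRPPRC, which stabilises mitochondrial mRNA, between -0.10 and 0.11, neither called in any table. TFAM, which packs mitochondrial DNA and starts its transcription, rose in the U2OS double knockdown, 0.71 ± 0.19 SE (adjusted p = 0.00237), per the authors' deposited table. In the HCT116 double knockdown TFAM stood at 0.16 ± 0.17 SE (adjusted p = 0.719), per the authors' deposited table. Whether TFAM bears on levels of the mitochondrially encoded RNAs was not tested. MTERF2, a mitochondrial DNA-binding protein, fell in the HCT116 double knockdown (-1.16 ± 0.35 SE, adjusted p = 0.02, per the authors' deposited table). It stood at -0.96 and -1.09 after siMYBL1 and siMYBL2 in HCT116 and at -0.59, -0.26 and -0.68 in U2OS, not called. TFAM and MTERF2 were the only called genes among 29 listed of 30 in the list for transcription and RNA processing. TFAM was 1 of 29 in the U2OS double knockdown, where 6.55% of all genes were called higher. MTERF2 was 1 of 29 in the HCT116 double knockdown, where 4.12% of all genes were called lower. ESRRA, a nuclear receptor that drives respiratory genes, rose in the U2OS double knockdown (0.69 ± 0.20 SE, adjusted p = 0.00906, per the authors' deposited table). It was the only called gene of 8 nuclear regulators of respiratory genes there, where 6.55% of all genes were called higher. PPARGC1A, its coactivator, was listed only in the U2OS double knockdown table, at 2.01 ± 0.99 SE (adjusted p = 0.194). MT-RNR2, the large mitochondrial ribosomal RNA, rose there as well (0.60 ± 0.18 SE, adjusted p = 0.0129, per the authors' deposited table). It was 1 of 2 listed of 24 mitochondrial rRNA and tRNA genes, where 6.55% of all genes were called higher. The other listed gene, MT-RNR1, stood at -0.03 (SE 1.06) in that comparison, not called.

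For mitochondrial ribosomal proteins 0 of 78 were called in any HCT116 table and 1, 2 and 2 in U2OS, all lower, where 2.27%, 3.51% and 6.06% of all genes were called lower. MRPL21 stood at -0.88 after siMYBL2 and -1.13 in the double knockdown there. Citric acid cycle genes (13) and mitochondrial chaperones and proteases (14) had 0 called in all 6 tables by the DESeq2 test, with up to 2 of each at an unadjusted p under 0.05 in 1 direction. RRM2, a ribonucleotide reductase subunit that is high in dividing cells, fell in 5 tables, from -1.18 to -0.53. Its relative RRM2B, which supplies nucleotides for mitochondrial DNA in resting cells, rose in the HCT116 double knockdown (0.49 ± 0.17 SE, adjusted p = 0.0446, per the authors' deposited table). Each was the only gene called in its direction, of 16 in the list for mitochondrial DNA replication and nucleotide supply. Called lower were 0.837% and 4.12% of all genes in HCT116 after siMYBL2 and the double knockdown. In U2OS these shares were 2.27%, 3.51% and 6.06% after siMYBL1, siMYBL2 and the double knockdown. In the HCT116 double knockdown 2.82% of all genes were called higher. Of 17 glycolysis genes, 2 were called lower in the HCT116 double knockdown, 3 and 1 higher in U2OS after siMYBL1 and siMYBL2, and 4 higher and 1 lower in the U2OS double knockdown. Of all genes, 4.12% were called lower in the HCT116 double knockdown, 3.44%, 1.69% and 6.55% were called higher in U2OS after siMYBL1, siMYBL2 and the double knockdown, and 6.06% lower in the last. LDHA, which makes lactate, fell in both double knockdowns, at -0.43 in HCT116 and -0.89 in U2OS. HK1, HK2 and ALDOC rose in the U2OS double knockdown, at 0.88, 1.36 and 1.58, per the authors' deposited table. Cytosolic ribosomal proteins, 65 abundant nuclear genes, had medians between -0.12 and 0.02.

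**Figure D5:**
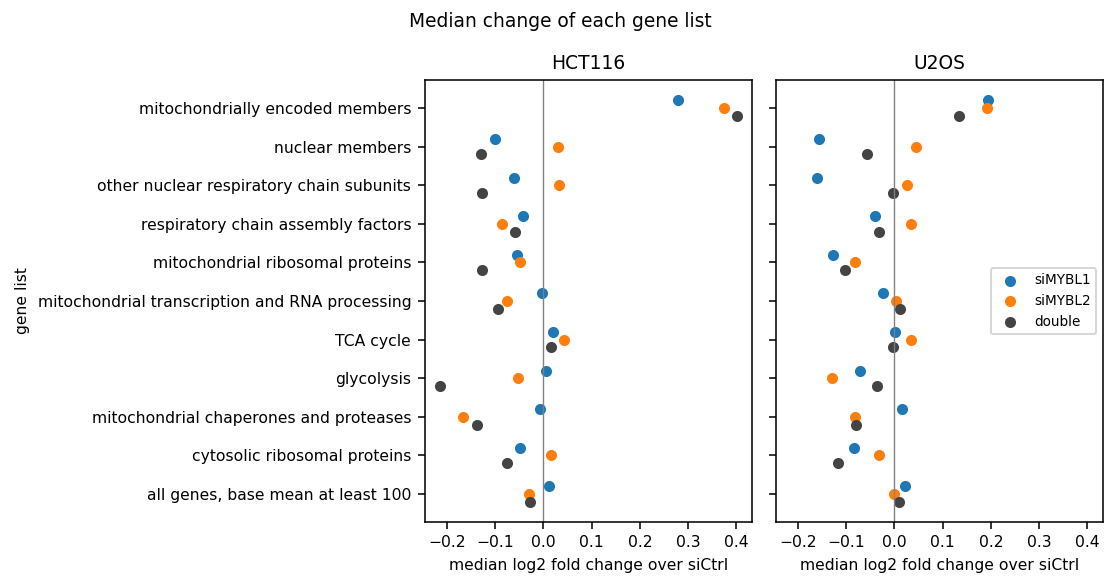
Median log2 fold change over siCtrl (x axis) of each gene list (y axis) in HCT116 (left) and U2OS (right), 1 point for each knockdown. The mitochondrially encoded members lie at 0.28, 0.37 and 0.40 in HCT116 and 0.19, 0.19 and 0.13 in U2OS, and every other list drawn lies between -0.22 and 0.05. Lists not drawn are the nuclear regulators (-0.15 to 0.10), the genes for mitochondrial DNA replication and nucleotide supply (-0.11 to 0.04), and the mitochondrial rRNA and tRNA genes (0.03 to 0.29).

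Promoters of the nuclear members were read to show what they share. RefSeq's table (GRCh38.p14) holds windows from 250 bases before to 50 after the start for 27 of the 34, which is 32 windows. In all, 4 motifs were searched on both strands: that of NRF1, which is GCGCA and GCGC with any base between them; an ETS core, CCGGAAG; that of YY1, AANATGGC; and the cell cycle element CHR, TTTGAA. No motif contains another. By gene, NRF1's was found in 8 of 27, the ETS core in 9, YY1's in 12 and the CHR in 1 (NDUFA5). By window the shares were 25.0%, 28.1%, 40.6% and 6.25%, beside 5.78%, 10.3%, 6.58% and 15.2% of all 35116 windows of this length in the table. Among windows of genes listed in all 6 tables the shares were 10.5%, 17.9%, 9.69% and 9.96%. A match is a description of letters, not a bound site. Matches near 2 called genes and 2 genes that were not called are shown, with the match in capitals.
NDUFA8, chr9:122159764-122159793, reverse strand, NRF1: gttgccggatGCGCATGCGCaggcgccgtg
NDUFB8, chr10:100529836-100529865, reverse strand, YY1: tgaagaaggtgAAGATGGCggtggccaggg
SDHD, chr11:112086753-112086782, forward strand, NRF1: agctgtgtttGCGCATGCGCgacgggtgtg
ATP5F1C, chr10:7788145-7788174, forward strand, NRF1: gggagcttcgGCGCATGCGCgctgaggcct
NDUFA8, SDHD and ATP5F1C, among the 8 genes with NRF1's motif, hold the same 10 letters. In the U2OS double knockdown NDUFA8 was called lower (-0.64), and SDHD (-0.18) and ATP5F1C (-0.07) were not called. Whether the motif bears on these values was not tested. NDUFB8 was the member called most often. The 150 bases before the more upstream of its RefSeq starts are chr10:100529924-100530073 on the reverse strand, written 5′ to 3′. The upper of the gene bounds given above for NDUFB8 lies within this stretch.
NDUFB8: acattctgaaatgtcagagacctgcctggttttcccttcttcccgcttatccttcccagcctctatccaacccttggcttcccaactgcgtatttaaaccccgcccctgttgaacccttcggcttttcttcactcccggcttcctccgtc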

How the data were processed

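RNA of the 16 libraries was sequenced in pairs, and 6 tables of knockdown against siCtrl were deposited, each from 4 libraries. The authors' deposited base mean is a signal, the average normalized count of a gene, and the deposited log2 fold change has its standard error beside it. Per the file headers, the Wald statistic is a score, and the deposited p-value has an adjusted p-value with it; they were checked to equal fold change over SE and Benjamini-Hochberg adjustment over the genes each table lists. The submitters' processing notes name hg38, cutadapt 4.4, Salmon 1.10.1 and DESeq2 1.40, with no order or settings. The annotation release, the filters and the strand setting are not given in any source used here. Salmon shares reads between transcripts of like sequence, so overlapping mitochondrial genes and nuclear copies can exchange counts. Total counts per library are not given in the tables, so depth and its precision are unknown.

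With no values per library, the authors' deposited DESeq2 test was taken as it stands, at an adjusted p under 0.05. Group means were rebuilt from base mean and fold change with equal weight for each library and are approximate. Differences between lines, and between double and single knockdowns, were divided by the root of the summed squared SEs, with a two-sided normal p adjusted over all genes in both tables (scipy 1.17.1, pandas 2.3.3, numpy 2.4.6, Python 3.11.15); the calculation was tested on simulated data. Levels per kb used the lower median length of principal protein-coding transcripts in GENCODE 29. Figures were drawn with matplotlib 3.10.9.

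The members, the gene lists and the markers were chosen with earlier results of these data known. All 47 members could be named, with MYBL1, MYBL2, TFAM, POLRMT, LRPPRC and PPARGC1A, and from each list up to 4 called genes of smallest adjusted p per comparison; called nuclear copies of mitochondrial genes, up to 4, were named too. MT-RNR1 was named after its values were seen. The class of base mean 10000 or more, the SE limit of 0.3, the forward-strand genes as a subset, the motifs, the length rule and the sequences shown were also chosen after values were seen. Alternatives were other thresholds, gene sets for adjustment, scalings and errors.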

Additional observations from a re-analysis of the deposited data

How the results depend on the processing

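No paired analysis was possible because the tables hold no values per library, and no library could be left out in turn for the same reason. Of 108 counts of members called under the alternatives, 98 stayed within 1.5 times the main count. Most main counts were 0, and a count of 0 that stays 0 was taken as unchanged. This number therefore says little about stability. Shares of all genes called are given only for the main settings, so counts under the alternatives have no background beside them. After siMYBL2 in HCT116 the mitochondrially encoded genes called were 3 at a threshold of 0.1, 1 after centring on the median of all genes and 2 with totals made equal without mitochondrial genes, against 0; the nuclear members called were 1 at a threshold of 0.1. At a threshold of 0.01, the HCT116 double knockdown kept 2 mitochondrially encoded and 1 nuclear calls, U2OS after siMYBL1 had 0 nuclear calls and the U2OS double knockdown 1. With the shared controls taken off the error, the double knockdown minus siMYBL1 gave 2 nuclear calls in HCT116 and 1 in U2OS, against 0. This smaller error lowers p for every gene. MT-CYB, MT-CO1 and NDUFB8 in the HCT116 double knockdown, NDUFB5 after siMYBL1 in U2OS and NDUFA8 in the U2OS double knockdown were called at 0.05 and not at 0.01, which the change of threshold alone brings about. Under other scalings and with a weighted mean, the value for the mitochondrially encoded genes stayed above 0 in every comparison, and that for the nuclear members stayed below 0 after siMYBL1 and in the double knockdowns. With totals made equal without mitochondrial genes, the nuclear median moved from -0.13 to -0.04 in the HCT116 double knockdown and from -0.06 to -0.01 in the U2OS double knockdown. After siMYBL2 the nuclear value went from 0.03 to -0.01 in HCT116 and from 0.05 to -0.01 in U2OS as a weighted mean, and to 0.10 and 0.12 with equal totals. With the longest principal transcript, a rule set aside after seeing the data, the lowest mitochondrially encoded level per kb in U2OS was 1.01 times the highest nuclear one, against 0.829.

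With 2 libraries in a group, unknown depth and rebuilt group means, absence of a call does not show absence of change. Replicates are called biological, but nothing states how cultures were separated, so the p-values measure only the spread between these libraries.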
